A study of Solanum tuberosum with 10 samples.

Results

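Transcript levels were compared between ultrasonicated and control potato explants (Solanum tuberosum, cv. Desirée, grown in vitro) 24 h after the treatment. The comparison rests on 2 of the 10 libraries of the series, chosen by their labels, with 1 library per arm. Each library was made from RNA of 3 biological replicates that had been pooled, so the spread between plants was not measured and no test is possible within this time. Ratios are therefore given with an interval for counting error only.

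The ultrasonicated explants were single-node pieces carrying a leaf, taken from plantlets 4 weeks old. They were put 90 to a beaker of 50 ml with 40 ml liquid MS medium (a standard plant culture medium) and treated in a bench ultrasonicator. They were then cultured on medium without growth regulators. The control was the library of non-ultrasonicated explants grown on the same medium and sampled at the same time. Both arms share the cutting, the cultivar and the plantlet age. Whether control explants were held in liquid medium is not stated, so immersion and ultrasound cannot be told apart. The other 8 libraries are the same 2 arms at 0 h, 48 h, 1 week and 4 weeks. The labels name the tissue stem, although the explants carried a leaf. RBCS-2C, a gene of green tissue, and WAXY, a gene of starch-storing tissue, were both well covered at 24 h, with the values given below.

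Ultrasound in liquid is a mechanical stimulus: it produces pressure waves and, at sufficient power, collapsing bubbles. Cutting a stem is itself a wound, and the first day after cutting is a period in which explants reset photosynthesis, respiration, protein synthesis and defence before a bud grows out. Both arms were wounded, so the wound is common to both. With 1 pooled library per arm, a difference added by the treatment and one between libraries cannot be told apart.

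The 2 libraries were deep and similar in size, apart from ribosomal RNA. The ultrasonicated library held 128154587 counts and the control library 122786170 counts. The 284 features named as ribosomal RNA took 0.0706% of all counts in the ultrasonicated library and 2.46% in the control library, against 0.0357% to 0.457% in the other 8 libraries. These features were left out, which left 128064122 counts in the ultrasonicated library and 119763586 counts in the control library. Levels are given as CPM, counts scaled to a common library size with the TMM factor (trimmed mean of M-values), which was 1.013 in the ultrasonicated library and 1.006 in the control library. A count of 0 allows up to 3 counts, which is 0.0231 CPM in the ultrasonicated library and 0.0249 CPM in the control library.

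Most features compared, 21063 of 24019, were not set apart by the 2-fold rule described here. Of 40146 features kept, 13500 had no count in either library and 2627 had fewer than 20 counts over both, which left 24019 for comparison. Across these features the log2 CPM values of the 2 libraries correlated with r = 0.970, a value across features that are not independent replicates. The median log2 ratio of ultrasonicated over control was 0.02, and 10762 features (44.8%) lay within 1.25-fold of equal. At this depth counting error is small: the exact 95% interval lay wholly above 1 for 41.5% of features and wholly below 1 for 38.4%. A feature was therefore called apart only where its whole interval lay beyond 2-fold.

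By that rule 1248 features (5.2%) were higher in the ultrasonicated library and 1708 (7.11%) were lower, while 21063 were neither. The higher features held 4.75% of the counts in the ultrasonicated library and 1.53% in the control library. The lower features held 0.859% in the ultrasonicated library and 5.51% in the control library. Without the 48 of them that lie within 10 kb of a ribosomal RNA feature, the lower features held 0.797% in the ultrasonicated library and 2.79% in the control library. At a limit of 4-fold the numbers were 387 higher and 572 lower, and at 10-fold they were 90 and 159. Many called features were thinly covered, with 419 of the higher and 503 of the lower ones under 100 counts over both libraries. Among features with a mean of at least 10 CPM the balance was turned, with 311 higher and 282 lower of 12136, a restriction chosen after the values were seen.

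**Figure D1:**
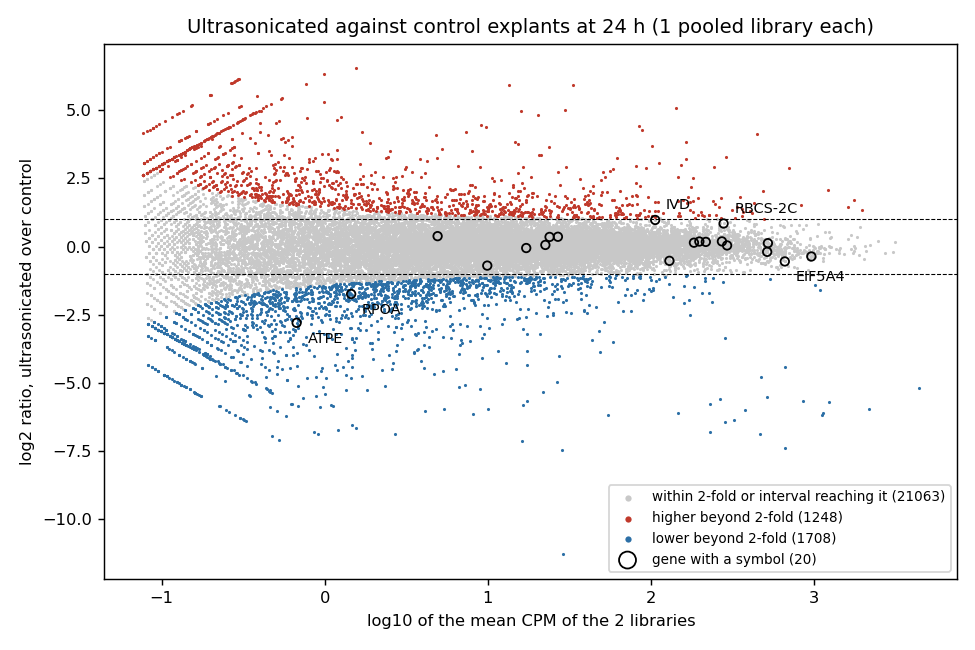
Each point is 1 of the 24019 features compared at 24 h, with the log10 of its mean CPM over both libraries on the x axis and the log2 ratio of ultrasonicated over control on the y axis. Red points (1248) were higher and blue points (1708) lower beyond 2-fold by their whole interval, dashed lines mark 2-fold, and circles mark the 20 genes with a symbol, of which only ATPE and RPOA lie among the called points.

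The table gives a symbol to 22 gene models, and these are the only ones whose product can be named here. No symbol gene was higher beyond 2-fold, against 5.2% of all features compared. Of the 20 compared, 2 were lower, both with at most 270 counts in a library, against 7.11% of all features compared. The median log2 ratio of the 20 symbol genes was 0.09, against 0.02 over all features compared. Their intervals lay wholly above 1 in 11 cases, wholly below in 7 and across 1 in 2. Over all features compared the shares were 41.5% above, 38.4% below and 20.1% across. Of the 20, 9 lay within 1.25-fold, against 44.8% of all features compared. Apart from the intervals, these counts are near the shares of features in general. A smaller share of the 20 intervals held 1 and a larger share lay above 1. Both models labelled RPS18, a ribosomal protein, were under the count minimum, with 0 counts in the ultrasonicated library for each and 0 and 18 counts in the control library.

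Among genes of mitochondrial metabolism, IVD (PGSC0003DMG400008113, chromosome 11, 41104262 to 41111799, on a build that the table does not name) stood furthest above its control. IVD encodes isovaleryl-CoA dehydrogenase, which acts in leucine breakdown and can pass electrons to the respiratory chain. It had 18330 counts (141 CPM) in the ultrasonicated library and 8678 counts (72.0 CPM) in the control library. The ratio was 1.96 with an interval of 1.91 to 2.01, so the interval included 2-fold. The ultrasonicated library at 24 h held the highest IVD level of all 10. At 0 h IVD had 34.3 CPM in ultrasonicated and 30.4 CPM in control explants, and at 48 h it had 44.5 CPM in ultrasonicated and 53.3 CPM in control explants. At 1 week it had 28.7 CPM in ultrasonicated and 33.0 CPM in control explants, and at 4 weeks 25.2 CPM in ultrasonicated and 25.7 CPM in control explants. The control library at 24 h was the next highest of the 10, and the ratios of the other 4 times ran from 0.836 to 1.13.

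2MBCD, which encodes the related 2-methylbutanoyl-CoA dehydrogenase of isoleucine breakdown, stood at 5.58 CPM in the ultrasonicated library and 4.29 CPM in the control library. Its ratio was 1.30 (1.16 to 1.46). The alternative NAD(P)H dehydrogenases let mitochondria oxidise NAD(P)H without pumping protons, and the 2 measured genes lay on opposite sides. NDB1, an enzyme of the outer face of the inner membrane, had 26.9 CPM in the ultrasonicated library and 21.1 CPM in the control library, a ratio of 1.28 (1.21 to 1.34). NDA1, of the inner face, had 7.59 CPM in the ultrasonicated library and 12.3 CPM in the control library, a ratio of 0.616 (0.568 to 0.668). NDA1 was below its control at 0 h (ratio 0.414) and 48 h (0.399) as well, and above it at 1 week (1.84) and 4 weeks (1.21).

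The 3 genes of photosynthesis and the plastid lay on both sides. RBCS-2C (PGSC0003DMG400012666, chromosome 2, 41192215 to 41193945), a nuclear gene for the small subunit of Rubisco, the carbon-fixing enzyme, had 46688 counts (360 CPM) in the ultrasonicated library. It had 24183 counts (201 CPM) in the control library, a ratio of 1.79 (1.77 to 1.82). At 0 h the order was the reverse and the levels were higher, at 687 CPM in ultrasonicated and 2075 CPM in control explants. Relative to control, RBCS-2C was also lower at 48 h (ratio 0.832) and 4 weeks (0.508) and higher at 1 week (1.67). In bulk tissue, fewer green cells and less of the RNA per cell cannot be told apart.

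ATPE and RPOA stood on the other side. ATPE encodes a subunit of the chloroplast ATP synthase and RPOA the alpha subunit of the plastid RNA polymerase, and in plants both are genes of the plastid genome. The table places the ATPE model (PGSC0003DMG400025106) on chromosome 5, 1659655 to 1660475, and the RPOA model (PGSC0003DMG400014075) on chromosome 12, 3289301 to 3291579, so reads of a plastid gene and of a nuclear copy cannot be told apart. ATPE had 22 counts in the ultrasonicated library and 142 in the control library, a ratio of 0.144 (0.0875 to 0.227). RPOA had 87 counts in the ultrasonicated library and 270 in the control library, a ratio of 0.299 (0.232 to 0.383). Both were lower beyond 2-fold at 24 h, and neither kept that side at every time. RPOA stood at 1.08 CPM in ultrasonicated and 0.310 CPM in control explants at 48 h, a ratio of 3.46.

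The starch synthases also lay on both sides. WAXY (PGSC0003DMG400012111, chromosome 8, 56782186 to 56785790), the granule-bound synthase that makes amylose, had 107 CPM in the ultrasonicated library and 154 CPM in the control library, a ratio of 0.695 (0.680 to 0.711). SS2, a synthase of amylopectin, had 193 CPM in the ultrasonicated library and 175 CPM in the control library, a ratio of 1.10 (1.08 to 1.12). WAXY was further below its control at 48 h, with 73.1 CPM in ultrasonicated and 230 CPM in control explants, a time at which SS2 too was below, with 86.8 CPM in ultrasonicated and 173 CPM in control explants. WAXY was above its control at 0 h (1.63) and 4 weeks (2.07).

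Among the 5 genes of protein synthesis and turnover, 2 had intervals above 1 and 3 below, with ratios from 0.684 to 1.09. The interval of EIF5A5 held 1 under 3 of the 4 other scalings. The EIF5A genes encode a translation factor that helps ribosomes through difficult stretches of a protein. EIF5A4 (PGSC0003DMG400026829, chromosome 1, 51719395 to 51722322) had 541 CPM in the ultrasonicated library and 790 CPM in the control library, a ratio of 0.684 (0.677 to 0.691). That control level was the highest EIF5A4 value of the 10 libraries. EIF5A2 was lower as well, with a ratio of 0.873, while EIF5A3 (1.09) and EIF5A5 (1.03) were slightly above 1. Reads of these similar genes may be shared by the counting, whose treatment of such reads is not given in the sources used here. UBI3 (PGSC0003DMG400005199), a ubiquitin fused to a ribosomal protein, had 846 CPM in the ultrasonicated library and 1090 CPM in the control library, a ratio of 0.776 (0.770 to 0.783). EIF5A4 and UBI3 were above their controls at 0 h, 48 h and 1 week, with ratios of 1.17, 1.30 and 1.39 for EIF5A4 and of 1.15, 1.44 and 1.37 for UBI3. At 4 weeks UBI3 was below its control, at 0.836 (0.828 to 0.845), and EIF5A4 was at 0.998 (0.984 to 1.01).

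Of the genes of secondary metabolism, signalling and defence, all but CHS1B lay within 1.25-fold of their controls. CHS1B, a chalcone synthase at the entry to flavonoids, had 30.3 CPM in the ultrasonicated library and 23.7 CPM in the control library, a ratio of 1.28 (1.22 to 1.34). Its ratio was 2.33 at 0 h, was below 1 at 48 h (0.738), and was 1.36 at 1 week and 2.87 after 4 weeks. METK1, which makes the methyl donor S-adenosylmethionine, had a ratio of 1.14, and HMG3, an HMG-CoA reductase of the mevalonate route, 1.04 with an interval that held 1. PCM6, a calmodulin that reads calcium signals, had 292 CPM in the ultrasonicated library and 256 CPM in the control library, a ratio of 1.14 (1.12 to 1.16). SN2, an antimicrobial snakin peptide, had a ratio of 1.12, against 0.474 at 0 h and 2.18 at 1 week. WHY1, a Whirly protein that binds single-stranded DNA, had a ratio of 0.962 with an interval from 0.906 to 1.02.

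**Figure D2:**
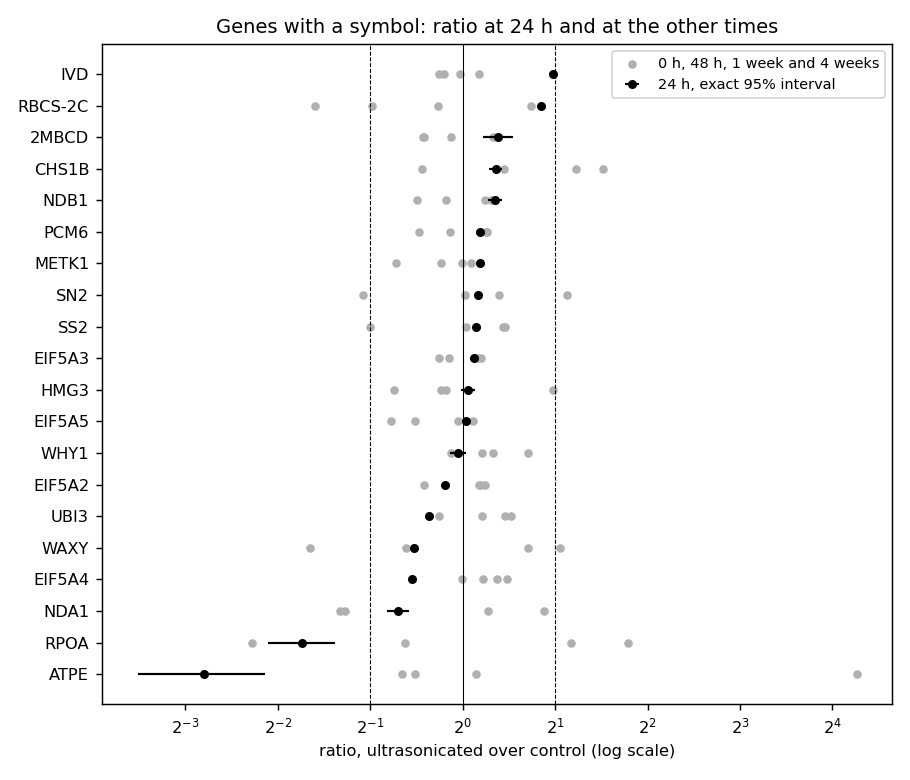
Ratio of ultrasonicated over control CPM (log scale) for the 20 compared genes with a symbol, black for 24 h with the exact 95% interval and grey for the other 4 times. At 24 h IVD (1.96) and RBCS-2C (1.79) lie furthest to the right and RPOA (0.299) and ATPE (0.144) furthest to the left, and for most genes the grey points spread to both sides of 1 (the ATPE point far right is 1 week, 59 against 0 counts, set against the floor of 3 counts).

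The gene models without a symbol hold most of the difference. They can be described by identifier, place and level only. By the interval bound nearest 1, the furthest above was PGSC0003DMG400027202 (chromosome 5, 48416600 to 48418300), with 257 counts in the ultrasonicated library and 0 in the control library. Set against the floor of 3 counts in the control library it was at least 79.6-fold higher, a bound that holds for that floor only. The exact interval, which covers the error of both counts, began lower, at 64.3-fold. At 48 h the order was the reverse, with 47 counts in the ultrasonicated and 319 in the control library.

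PGSC0003DMG400001372 (chromosome 2, 45423918 to 45424907) was far better covered. It had 8518 counts (65.7 CPM) in the ultrasonicated library and 132 counts (1.10 CPM) in the control library, a ratio of 60.0 (50.5 to 71.8). It had 14.5 CPM in ultrasonicated and 0.231 CPM in control explants at 0 h, and at 48 h it had 20.9 CPM in ultrasonicated and 13.9 CPM in control explants. Later the order was the reverse, at 2.74 CPM in ultrasonicated and 6.54 CPM in control explants at 1 week, and 0.0962 CPM in ultrasonicated and 1.29 CPM in control explants at 4 weeks.

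The 2 gene models furthest below lie together on chromosome 1 beside features named as ribosomal RNA. PGSC0003DMG400036067 (51066486 to 51070024, 2383 bases from such a feature) had 1026 counts (7.91 CPM) in the ultrasonicated library and 159188 counts (1321 CPM) in the control library, which is 167-fold lower (157 to 178). PGSC0003DMG400046976 (51059758 to 51060718, 177 bases away) had 3 counts in the ultrasonicated library and 6959 in the control library, a ratio of 0.000401 (8.26e-05 to 0.00117). Of the 12 gene models furthest below, 10 lie within 10 kb of a ribosomal RNA feature, against 0 of the 12 furthest above.

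Ribosomal RNA itself was far lower in the ultrasonicated than in the control library. Its share of all counts was 0.0706% in the ultrasonicated library, inside the range of the other 8 libraries (0.0357% to 0.457%). In the control library it was 2.46%, above that range. The features left out had 90465 counts in the ultrasonicated library and 3022584 in the control library, a ratio of 0.0278 (0.0276 to 0.0280). The small-subunit RNA (ratio 0.0270), the large-subunit RNA (0.0299) and the 5.8S RNA (0.0399) differed alike. The 106 compared features within 10 kb of them had 271971 counts in the ultrasonicated library and 3413752 in the control library. Of these 106, 48 (45.3%) were lower beyond 2-fold and 6 (5.66%) higher, against 6.94% lower among features further away. Their summed level was 2097 CPM in the ultrasonicated library and 28322 CPM in the control library at 24 h, and lay between 1401 and 11632 CPM in the other 8 libraries. The series' protocol removes ribosomal RNA before sequencing, and the part of what remained in the lower list was not tested. Without the features near ribosomal RNA, 1242 were higher and 1660 lower.

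The library kit was one meant for mRNA, and how fully it kept small noncoding RNAs was not tested. The ratios of these classes, here and in the next paragraph, therefore compare the reads counted. Whether those reads follow the amounts of these RNAs in the explants is not known. Of the small noncoding RNAs, the signal recognition particle RNA stood furthest below its control. This RNA, the scaffold of the complex that docks ribosomes on the endoplasmic reticulum, had 424 counts (3.27 CPM) in the ultrasonicated library and 9865 counts (81.8 CPM) in the control library. The ratio, summed over all 50 loci of the class, was 0.0399 (0.0362 to 0.0440). Of the 13 loci with enough counts to compare, 11 were lower beyond 2-fold, against 7.11% of all features compared. Some of these loci reached the count minimum only through the control library, for example with 0 counts in the ultrasonicated library and 31 in the control library. The number of lower loci was thus partly fixed by that minimum. The largest locus (chromosome 9, 57393957 to 57394259) had 139 counts in the ultrasonicated library and 5175 in the control library. Over the other 8 libraries the summed level ran from 2.03 to 14.3 CPM, so the control library at 24 h stood apart from all the rest. That library is also the one with the high share of ribosomal RNA, and the part of that share in this result was not tested.

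Self-splicing group II introns, a plastid and mitochondrial class, had 617 counts in the ultrasonicated library and 1247 in the control library, a ratio of 0.460 (0.417 to 0.507), with 2 of 7 compared loci lower. A single locus (chromosome 1, 64701452 to 64701583), not called, held 516 of these counts in the ultrasonicated library and 991 in the control library. The 2 lower loci had 4 counts each in the ultrasonicated library, against 34 and 42 in the control library. Another locus went the other way, with 20 counts in the ultrasonicated library and 6 in the control library. The spliceosomal and nucleolar RNAs had ratios from 0.323 to 1.11. U6, part of the catalytic core of the spliceosome, had 759 counts in the ultrasonicated library and 636 in the control library, a ratio of 1.11 (0.997 to 1.23). U2, which pairs with the branch point, had a ratio of 0.855, U1, which pairs with the donor site, 0.621, and U5 0.863. U4, the partner of U6, had 16 counts in the ultrasonicated library and 46 in the control library, a ratio of 0.323 (0.171 to 0.582). The U3 nucleolar RNA, which acts in ribosomal RNA processing, had a ratio of 0.848 and the other small nucleolar RNAs 0.933 (0.823 to 1.06). RNase MRP RNA had 16 counts in the ultrasonicated library and 32 in the control library, and transfer RNAs had 53 in the ultrasonicated library and 70 in the control library, with 1 compared locus each. No compared locus of any class was higher beyond 2-fold, against 5.2% of all features compared. Group I introns had no count in either library, miRNA precursors had 7 counts in each, and IsrR, an antisense RNA known from cyanobacteria, had 2 counts in the ultrasonicated library and 1 in the control library.

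**Figure D3:**
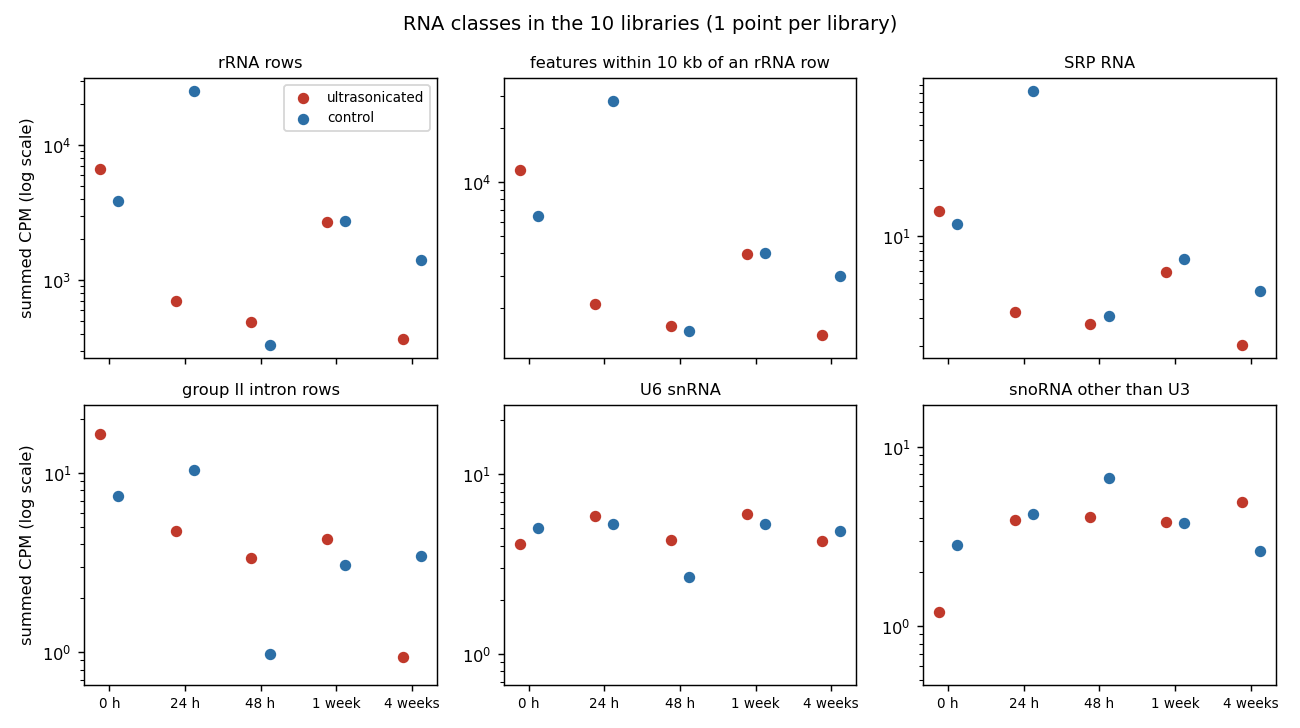
Summed CPM (log scale, each panel with its own range) of ribosomal RNA features, the 106 features near them, and 4 noncoding classes in each of the 10 libraries, ultrasonicated in red to the left of control in blue at each time. In the upper 3 panels the control library at 24 h is the highest of the 10 (81.8 CPM for the signal recognition particle RNA), whereas for U6 and the small nucleolar RNAs it lies among the others.

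Called features of both directions had a neighbour called in the same direction more often than the share over all features. Of higher features with a compared, non-overlapping neighbour downstream on the chromosome, 12.4% had a neighbour that was higher too, against 5.19% of such features in all. For lower features the values were 13.2% and 7.11%, and away from ribosomal RNA features they were 12.2% and 6.99%. Neighbouring genes in plants are often tandem copies, and reads shared between near-identical copies are uncertain here. Runs of adjacent called features were looked for after the values had been seen and are given as a description.

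A run of 4 features on chromosome 6 (54093287 to 54201712) had the highest summed ratio of the higher runs with 4 or more features, at 478 CPM in the ultrasonicated library and 23.7 CPM in the control library, 20.2-fold (19.4 to 20.9). Its single ratios ran from 2.99 to 34.0. Its level stood above the control at every other time as well, for example at 152 CPM in ultrasonicated and 51.5 CPM in control explants at 4 weeks. A run of 8 features on chromosome 7 (48345195 to 48368633) had 625 CPM in the ultrasonicated library and 156 CPM in the control library, a ratio of 4.00 (3.94 to 4.06). At 0 h it had 2157 CPM in ultrasonicated and 708 CPM in control explants, and at 1 week the order was the reverse, with 50.8 CPM in ultrasonicated and 242 CPM in control explants.

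A run of 4 on chromosome 8 (54286145 to 54293066) had the highest summed level of these runs. It held 3777 CPM in the ultrasonicated library and 1525 CPM in the control library, a ratio of 2.48 (2.46 to 2.49). At 0 h it was nearly silent, with 2.23 CPM in ultrasonicated and 3.46 CPM in control explants, and at 48 h the control was higher, with 1153 CPM in ultrasonicated and 2262 CPM in control explants. A run of 4 on chromosome 3 (32424153 to 32673314) showed the same order at these times, with 109 CPM in ultrasonicated and 43.3 CPM in control explants at 24 h, and 41.3 CPM in ultrasonicated and 85.7 CPM in control explants at 48 h. A run of 4 on chromosome 11 (43219291 to 43232361) had its highest levels at 0 h and 125 CPM in the ultrasonicated and 35.8 CPM in the control library at 24 h.

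**Figure D4:**
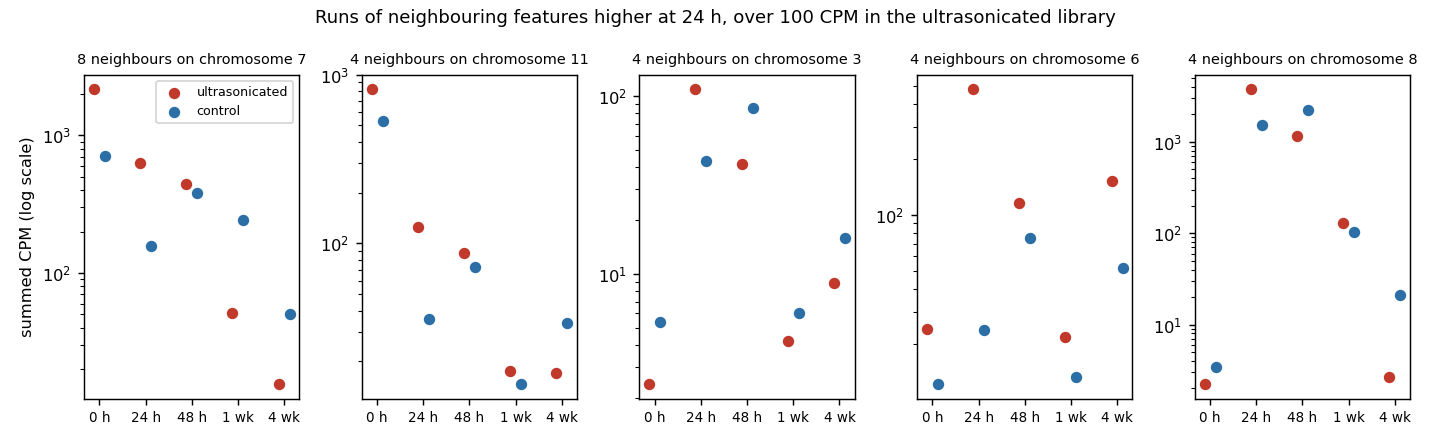
Summed CPM (log scale, each panel with its own range) of the 5 runs of adjacent higher features that exceeded 100 CPM in the ultrasonicated library at 24 h, in all 10 libraries, ultrasonicated in red to the left of control in blue. All 5 are higher in the ultrasonicated library at 24 h because the runs were chosen so, and at 48 h the runs on chromosomes 3 and 8 are higher in the control.

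Among the lower runs, the longest away from ribosomal RNA were 6 features on chromosome 5 (888804 to 949032), with 13.4 CPM in the ultrasonicated library and 69.9 CPM in the control library, and 6 on chromosome 7 (46148971 to 46370711), with 9.56 CPM in the ultrasonicated library and 55.6 CPM in the control library. A run of 5 on chromosome 12 (48234095 to 48606131) had 40.2 CPM in the ultrasonicated library and 174 CPM in the control library. At 48 h these 3 runs were below their controls too, though on chromosome 7 only by 21.2 CPM in ultrasonicated against 22.4 CPM in control explants. They were also below at 1 week, at 45.4 CPM in ultrasonicated and 88.0 CPM in control explants on chromosome 5, 5.59 CPM in ultrasonicated and 45.0 CPM in control explants on chromosome 7, and 72.4 CPM in ultrasonicated and 331 CPM in control explants on chromosome 12. At 0 h the order was the reverse on chromosome 5, with 28.3 CPM in ultrasonicated and 12.9 CPM in control explants, and on chromosome 12, with 64.1 CPM in ultrasonicated and 42.6 CPM in control explants. The chromosome 5 run was above its control at 4 weeks as well. The longest lower run of all, 10 features on chromosome 3 (12473425 to 12685995), lay wholly near ribosomal RNA features, with 365 CPM in the ultrasonicated library and 14446 CPM in the control library.

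The other 4 times share no library with 24 h, so their ratios are separate measurements. They compare the same 2 arms at other times and do not repeat the 24 h contrast. Over all features compared at both times, the log2 ratio at 24 h correlated weakly with that at 48 h (r = 0.18) and 1 week (r = 0.16), and r was 0.04 at 0 h and -0.02 at 4 weeks. These values are across features, which are not independent. By the 2-fold rule, 12.6% of features compared at 0 h were higher and 11.5% lower, and at 48 h 2.17% were higher and 6.24% lower. At 1 week 6.74% were higher and 11.8% lower, and at 4 weeks 5.93% were higher and 7.34% lower.

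Of the features lower at 24 h, 510 of 1542 (33.1%) were lower at 1 week, against 10.5% of all features compared at both times. At 48 h 334 of 1568 (21.3%) were lower, against 5.83%. As a share of the other list, these are 20.9% of the features lower at 1 week and 24.3% of those lower at 48 h. At 0 h 16.6% were lower, against 10.9%, while 21.2% were higher, against 11.6%. At 4 weeks 16.4% were lower, against 6.41%, and 12.6% higher, against 5.03%. Opposite calls were less frequent at 48 h (5.17% higher, against 1.94%) and 1 week (9.40% higher, against 5.86%). At these times too they were above the share of all features.

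Of the features higher at 24 h, 293 of 1042 (28.1%) were higher at 0 h, against 11.6% of all, which is 11.1% of the 0 h list. At 48 h 79 of 1191 (6.63%) were higher, against 1.94%, which is 17.2% of the 48 h list. At 1 week 15.4% were higher, against 5.86%, and at 4 weeks 13.3%, against 5.03%.

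Calls in the opposite direction were above the share of all features too. Of the features higher at 24 h, 20.2% were lower at 0 h, against 10.9%, and 7.30% at 48 h, against 5.83%. At 1 week 19.6% were lower, against 10.5%, and at 4 weeks 19.0%, against 6.41%. At 48 h, 1 week and 4 weeks more of the features higher at 24 h were thus lower than higher, which also held for all features compared. Called features were more frequent at low levels, and the part of level in these shares was not tested.

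**Figure D5:**
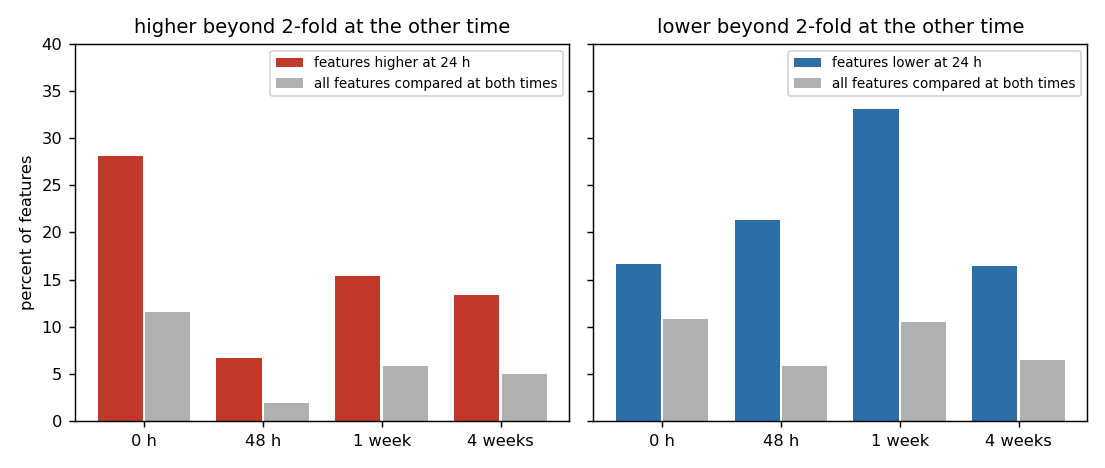
Percent of features higher (left) or lower (right) beyond 2-fold at each other time, for the features called in that direction at 24 h (coloured) and for all features compared at both times (grey). The 24 h lists lie above the grey bars at each time, by most for features lower at 1 week (33.1% against 10.5%).

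The level at 24 h was set against the range of the 8 libraries of the other times. For the higher features, the ultrasonicated library lay above all 8 in 322 of 1248 (25.8%), and the control library lay below all 8 in 304 (24.4%). For the lower features, the ultrasonicated library lay below all 8 in 692 of 1708 (40.5%), and the control library lay above all 8 in 316 (18.5%). Over all features compared, the ultrasonicated library lay above all 8 in 13.8% and below them in 12.6%, and the control library lay above in 11.6% and below in 10.2%. The lists were chosen from these same 24 h counts, so part of the excess over all features was fixed by that choice. Neither 24 h library lay outside that range in 637 of the higher features (51.0%) and 714 of the lower ones (41.8%), against 64.4% of all features compared.

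Whether the ratio at 24 h differed from the ultrasound effect common to the other 4 times was the one question with a test, in a fit over all 10 libraries with 3 residual degrees of freedom. The error of that fit was the departure of the other 4 times from a common effect, so any change of the effect over time enlarges it. A lack of calls therefore does not show that 24 h was like the other times. By edgeR's quasi-likelihood test 0 of 24373 features (0%) passed an adjusted p of 0.05, the smallest adjusted p being 1, and 607 (2.49%) had an unadjusted p under 0.05. DESeq2's Wald test on the same contrast called 72, of which 11 were higher and 61 lower at 24 h than elsewhere, and 20 of the lower ones lie near ribosomal RNA features.

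The symbol gene with the smallest p was IVD, whose log2 ratio at 24 h stood above that of the other times by 1.05 (SE 0.38, edgeR unadjusted p = 0.0284, adjusted p = 1). Of all features, PGSC0003DMG400005950 (chromosome 6, 54194363 to 54198068, in the run described above) had the smallest p among those higher. It had 36119 counts (278 CPM) in the ultrasonicated library and 987 counts (8.19 CPM) in the control library, a ratio of 34.0 (31.9 to 36.3), and was above its control at all 5 times. Its log2 difference from the other times was 3.95 (SE 0.47, edgeR adjusted p = 1). PGSC0003DMG400007387 (chromosome 8, 40861937 to 40864121) had the smallest p among those lower. It had 0 counts in the ultrasonicated library and 110 in the control library, at least 39.5-fold lower against a floor of 3 counts, while the exact interval began at 31.6-fold (edgeR adjusted p = 1). At the other 4 times it was higher in ultrasonicated explants, with 518 counts in ultrasonicated against 97 in control explants at 0 h and 771 against 289 at 48 h. At 1 week it had 65 counts in ultrasonicated against 16 in control explants, and at 4 weeks 253 against 24.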

How the data were processed

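Per the labels' protocols, RNA of 3 replicates was pooled per library and a stranded mRNA kit was used. Per the submitters' processing notes, HISAT2 2.1.0, FastQC 0.11.5 and Trim Galore 0.5.0 were run. Not given in the sources used here are the build, the annotation, the counting program and its settings for strand and for multimapping, so counts of overlapping, antisense and near-identical features are uncertain. The authors deposited raw counts per feature. Without ribosomal RNA features, libraries were scaled by TMM (edgeR 4.0.16, R 4.3.3). Ratios have exact 95% binomial (Clopper-Pearson) intervals (SciPy 1.17.1), which cover counting error only. Features with 20 counts over both libraries were compared, and 0.5 CPM was added before log2 transformation in correlations. The 24 h effect was tested against the other times with time as a block, by edgeR's quasi-likelihood test with Benjamini-Hochberg adjustment. That test was tried on simulated counts in which the ultrasound effect did not vary between the other times. Its performance in these data is therefore not known. DESeq2 1.42.0 was an alternative, beside other scalings, minimums and folds. The p-values reflect differences among pooled libraries, not among plants, and their error includes any change of the ultrasound effect over the other times. A table identifier was found in the reference gene table in 0 cases, and no sequence was used. Text names every symbol gene and noncoding class, the 2 gene models without a symbol furthest above and below, and the smallest p per direction in the test. Some feature names are those of an overlapping feature (1663 differ from the identifier). The comparison, its members and lists were chosen with earlier results of these data known.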

Additional observations from a re-analysis of the deposited data

How the results depend on the processing

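No paired analysis was possible because each arm has 1 pooled library at 24 h, so a replicate block leaves nothing to estimate within that time. In the test over all 10 libraries the arms were already paired by time. The 4 other scalings shifted the log2 ratios by -0.03 to 0.01, which reversed no direction among the symbol genes and noncoding classes. The interval of EIF5A5 came to hold 1 under 3 of them (ratios 1.00 to 1.01), and that of WHY1 lay below 1 under median-ratio scaling (0.885 to 0.998). A minimum of 200 counts over both libraries gave 692 higher and 986 lower features. An interval beyond 4-fold gave 387 higher and 572 lower, and a point ratio beyond 2-fold gave 1999 higher and 2661 lower. A mean of at least 10 CPM, chosen after seeing the data, gave 311 higher and 282 lower. The smaller counts under stricter limits follow from fewer features or a larger fold. For the difference between 24 h and the other times, leaving out the pair of each other time gave 0 to 0 calls with edgeR, and DESeq2 gave 72; the cause of the gap between the tools was not tested. Pooling hides the spread between plants, and features under about 100 counts have wide intervals.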

Other observations

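Features apart between the arms were concentrated among weakly expressed and short features. Of features under 0.5 CPM, 32.0% were higher or lower beyond 2-fold, against 4.34% of those at 50 CPM or more. By genomic span, 23.5% of features under 1000 bases were apart, against 3.53% of those of 8000 bases or more. The difference by span was there at a like level: from 10 to 50 CPM, 12.8% of features under 2000 bases and 2.26% of those of 4000 bases or more were apart. The median log2 ratio was -0.17 under 0.5 CPM and 0.05 at 50 CPM or more.

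By chromosome, the share of features higher in the ultrasonicated library ran from 4.41% on chromosome 11 to 6.10% on chromosome 3. The share of lower features ran from 5.68% on chromosome 8 to 9.08% on chromosome 9. Among the 481 features placed outside the 12 chromosomes, 8.11% were higher and 13.1% lower. Of 58 compared noncoding features that carry the name of an overlapping feature, 1 was higher and 29 were lower in the ultrasonicated library, against 5.2% higher and 7.11% lower over all features compared. Of these 58, 17 lie within 10 kb of a ribosomal RNA feature, and all 17 were lower.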
